A study of Mus musculus with 36 samples.

Results

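The genes described here are 48 genes of DNA replication and S phase, among 19210 genes listed in at least 1 of 2 deposited tables. They were chosen by symbol, from the replication machinery and its regulators, and all 48 were found in both tables, in which genes are given by NCBI gene number. By role they are 10 licensing genes, 6 helicase activation genes, 6 polymerase and primase genes, 10 genes of the clamp, its loader and the lagging strand, 5 nucleotide synthesis genes, 7 genes of chromatin assembly, chromatin upkeep and uracil removal, and 4 S phase regulators.

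A cell copies its genome once per cycle, in S phase. Origins are first licensed by loading the MCM helicase with the origin recognition complex, Cdc6 and Cdt1; the helicase is then activated, and polymerases, a sliding clamp and lagging-strand enzymes copy the strands. Many of these genes are transcribed together as cells pass from G1 into S phase, driven by E2F factors that pocket proteins of the retinoblastoma family hold back. The kinase inhibitor encoded by Cdkn1a, a p53 target, keeps the pocket proteins active, so S phase genes are a common readout of p53 after irradiation. Spleen and thymus of a mouse hold many dividing blood cells, whereas most hepatocytes of an adult liver are quiescent.

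RNA was sequenced from the livers, spleens and thymi of wt mice and of mice named d24, whose p53 lacks its C-terminal end. The paired-end table covers wt tissues after X-rays and wt tissues left untreated. The single-end table covers d24 tissues and wt tissues, and every library in it is titled xray. Each of the 12 groups has 3 libraries. The characteristics give 2 Gy and 3 h for irradiated libraries. They also give the treatment as control for 9 of the single-end libraries titled xray, namely d24 liver, d24 thymus and wt spleen, and give the cell type as WT for the 9 libraries titled d24, so the titles set the groups used here. The labels give no sex, age or strain and tie no library to an animal, so p-values measure only the spread between these libraries, which may be in part technical. In bulk tissue, fewer cells of a type and less RNA per cell cannot be told apart.

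Depth in the tables ran from 44348579 to 81322683 reads in paired-end libraries and from 20481048 to 38042710 in single-end ones. Values are the deposited signal, which is a CPM-like value with a library factor, and differences are X-ray minus untreated, or d24 minus wt, on the log2(signal + 0.5) scale. Cdkn1a was 97.7 to 162 in the 9 paired-end X-ray libraries, against 3.74 to 16.0 in the 9 untreated ones. In the single-end table it went against the titles: it was 319, 416 and 384 in d24 spleen, against 5.46, 7.36 and 9.37 in wt spleen titled xray. It was 359.6, 364 and 108 in d24 liver, against 17.7, 34.4 and 147 in wt liver, and 25.8, 20.4 and 67.8 in d24 thymus, against 16.5, 11.3 and 16.1 in wt thymus. The treatment label control went with the lower Cdkn1a group in spleen alone. For liver and thymus that label is on d24, the higher group. Only 108 in d24 liver lay below a wt value of its tissue, 147. A count per gene does not check a deletion at the end of a coding sequence. Libraries that stood apart were X-ray liver replicate 1, X-ray spleen replicate 1 and d24 thymus replicate 3, and results that rest on them are also given without them. The d24 liver libraries were widely spread, with replicate 2 lowest over the members. The members' median is given without it, and the counts without overlap are not.

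Levels before treatment set the frame. The panel followed through every comparison is Mcm4 (gene 17217, chr16:15623897-15637400), a subunit of the replicative helicase; Cdc6 (gene 23834, chr11:98907709-98923942), which loads that helicase; Ccne1 (gene 12447, chr7:38097984-38107490), the cyclin E1 that drives entry into S phase; Pcna (gene 18538, chr2:132249286-132253180), the sliding clamp; Rrm2 (gene 20135, chr12:24708254-24714146), the small subunit of ribonucleotide reductase; and Ung (gene 22256, chr5:114130366-114139321), the uracil-DNA glycosylase. Coordinates are RefSeq's on GRCm38, the assembly also called mm10. In untreated wt tissue, 45 of the 48 members had their highest mean signal in spleen and 46 had their lowest in liver, with a median of 102 in spleen, 46.0 in thymus and 18.5 in liver. The library factor differed by tissue. Column totals of untreated libraries were 1856582 to 1974820 in liver, 856981 to 964001 in spleen and 589786 to 599804 in thymus. How far the order of tissues rests on that factor was not tested. Cdca7, a partner of the chromatin remodeller Hells, and Hells itself were highest in thymus, at 226 ± 19.1 and 49.2 ± 4.62 (SD, n = 3 each). Shmt1, a cytosolic enzyme of folate metabolism that feeds thymidylate synthesis, was highest in liver at 354 ± 18.2 and lowest in spleen at 8.81 ± 0.512 (SD, n = 3 each). Per kilobase of exon, Pcna had the highest mean signal of all members in spleen and thymus, at 499 and 249, and Shmt1 had the highest in liver, at 124. The 2 lowest per kilobase in untreated spleen were Shmt1 at 3.08 and Hells at 7.12, and Orc1, the largest origin recognition subunit, was lowest in thymus and liver at 3.47 and 0.43.

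The letters before the genes' start sites were searched because most members moved together in spleen. RefSeq windows of GRCm38.p6 were available for 40 members; Mcm4, Gins1, Gins2, Gins4, Prim2, Pole, Rfc2 and Ccne2 had none. The 250 bases before the start were searched on both strands for the E2F letters TTTCCCGC, TTTGGCGC, TTTCGCGC or TTTGCCGC, for CCAAT, and for the CHR letters TTTGAA or TTCGAA. E2F letters were present in 11 of 40 members (27.5%), against 583 of 27025 genes (2.16%), 9 of 39 other replication genes (23.1%) and 1 of 21 mitotic genes (4.76%). The 11 members were Orc1, Cdc6, Mcm5, Mcm6, Mcm7, Gins3, Pola1, Rfc3, Hells, Uhrf1 and Cdca7. CCAAT was present in 24 of 40 members (60%), against 37.5% of all genes and 18 of 21 mitotic genes (85.7%). CHR letters were present in 7 of 40 members (17.5%), against 19.6% of all genes and 9 of 21 mitotic genes (42.9%). A match is a run of letters, not a measured binding site, and no binding was measured here. The stretches below, outside annotated exons, lie before the start in the table; those of Cdc6, Pola1 and Uhrf1 also lie inside the gene's annotated span. They are shown as examples of the 2 commonest kinds of match. They run 5′ to 3′ on the gene's strand, and capitals mark the E2F letters, which overlap in Mcm5, or CCAAT in Rrm2.
Cdc6, chr11:98908002-98908031, plus strand: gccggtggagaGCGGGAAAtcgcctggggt
Mcm5, chr8:75109349-75109378, plus strand: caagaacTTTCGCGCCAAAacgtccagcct
Mcm6, chr1:128359734-128359763, minus strand: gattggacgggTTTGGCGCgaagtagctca
Pola1, chrX:93632275-93632304, minus strand: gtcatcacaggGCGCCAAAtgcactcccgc
Uhrf1, chr17:56304117-56304146, plus strand: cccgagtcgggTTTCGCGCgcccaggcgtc
Rrm2, chr12:24708193-24708219, plus strand: gtcagcggcgtCCAATgggaggcgagg

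In irradiated wt spleen, nearly the whole replication set fell. Of 48 members, 44 were lower and 1 was higher at an adjusted p under 0.05 (limma, Benjamini-Hochberg adjustment over 13389 genes), against 20.4% of all genes lower and 19.5% higher. The median difference was -0.99 over the members and -0.03 over all genes tested. The 44 lower members were also the ones whose X-ray libraries all lay below every untreated library, a pattern met by 28.8% of all genes. The 5 lowest differences were those of Ccne1, Chaf1b, Hells, Gins2 and Cdc6. Rrm2, Tk1 and E2f2 did not pass. edgeR called 42 lower and 1 higher, without Orc1 and Tyms, against 16.4% of all genes lower and 39.4% in either direction. DESeq2 called 44 lower and 1 higher, against 20.5% of all genes lower.

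All 10 licensing genes fell in spleen, with a median difference of -1.12. Cdc6 had a signal of 114, 64.6 and 70.3 in X-ray spleen, against 208, 225 and 209 in untreated spleen. Mcm4 was 165, 114 and 109.9 in X-ray spleen, against 285, 361 and 302 in untreated spleen. Both genes were separated without overlap, and the first X-ray replicate was the nearest to the untreated libraries in each. The differences were -1.41 ± 0.20 for Cdc6 and -1.30 ± 0.18 for Mcm4 (SE, limma adjusted p = 0.00104 and 0.000895). The other MCM subunits lay between -1.23 ± 0.18 (Mcm6) and -1.02 ± 0.18 (Mcm2), and the smallest difference of the group was that of Orc1, -0.65 ± 0.20, whose call was lost under edgeR.

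All 6 helicase activation genes fell, with a median of -0.98. Gins2, a subunit of the GINS complex that joins the MCM helicase, was 16.0, 9.74 and 8.03 in X-ray spleen, against 30.0, 30.0 and 29.5 in untreated spleen. That is a difference of -1.43 ± 0.21 (limma adjusted p = 0.00133). Mcm10, which helps to activate the loaded helicase, differed by -1.25 ± 0.20. Gins3 and Gins4 of the same complex as Gins2 had the 2 smallest differences of the group, -0.70 ± 0.20 and -0.66 ± 0.17.

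All 6 polymerase and primase genes fell, with a median of -0.86 and a range from -1.09 ± 0.16 for Prim2, the large primase subunit, to -0.68 ± 0.17 for Prim1, the catalytic one. Pole, the leading-strand polymerase, was 42.7, 32.0 and 30.7 in X-ray spleen, against 62.3, 79.0 and 65.6 in untreated spleen. All 10 genes of the clamp, its loader and the lagging strand fell, with a median of -0.98. Pcna was 533, 334 and 335 in X-ray spleen, against 744, 744 and 784 in untreated spleen, a difference of -0.95 ± 0.19 (limma adjusted p = 0.00515). The clamp loader subunits Rfc4 and Rfc3 had the lowest differences of that group, -1.37 ± 0.18 and -1.28 ± 0.15, and Fen1, the flap endonuclease of Okazaki fragment maturation, had the smallest, -0.68 ± 0.17.

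The nucleotide synthesis genes were mixed. Of 5 genes, 2 fell, 1 rose and 2 did not pass. Rrm1, the large subunit of ribonucleotide reductase, and Tyms, thymidylate synthase, fell by 0.80 ± 0.20 and 0.69 ± 0.20 on the log2 scale, and the call of Tyms was lost under edgeR. Rrm2 was 816, 422 and 517 in X-ray spleen, against 789, 840.1 and 801 in untreated spleen. Its first X-ray replicate lay inside the untreated range while the other two lay below it, and the difference of -0.52 ± 0.23 did not pass (limma adjusted p = 0.0925). Tk1, thymidine kinase, had 1 high X-ray library as well, with 233, 103 and 134 in X-ray spleen, against 229, 221 and 230.1 in untreated spleen. With replicate number as a block, Tk1 passed and no call was lost.

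Shmt1 rose. It was 21.0, 40.8 and 30.3 in X-ray spleen, against 8.25, 9.25 and 8.94 in untreated spleen, with no overlap. The difference was 1.69 ± 0.21 (limma adjusted p = 0.000585). Hepatocyte markers moved in the same libraries: 7 of 7 tested were higher, their summed signal was 93.8 to 525 in X-ray spleen and 43.1 to 61.9 in untreated spleen, and Alb was 25.7, 325 and 284 in X-ray spleen, against 22.0, 15.1 and 29.5 in untreated spleen. Shmt1 is itself a liver gene here, and in the 6 paired-end livers its signal was at most 0.00148 of that of Alb. The part of hepatocyte RNA in the Shmt1 values was not tested.

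All 7 genes of chromatin and uracil removal fell, with a median of -1.01. Hells, a chromatin remodeller that helps to maintain DNA methylation, was 13.8, 13.0 and 13.2 in X-ray spleen, against 40.0, 48.3 and 37.1 in untreated spleen. Its 3 X-ray values were close to each other, replicate 1 included, and its difference of -1.60 ± 0.12 had the smallest adjusted p of the members (limma, 4.89e-05). Chaf1b, a subunit of the chromatin assembly factor that follows the fork, was 38.9, 22.5 and 20.1 in X-ray spleen, against 77.8, 86.8 and 77.1 in untreated spleen. Ung was 11.3, 15.1 and 11.9 in X-ray spleen, against 21.4, 24.5 and 20.9 in untreated spleen, a difference of -0.79 ± 0.13.

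Of the 4 regulators, Ccne1 had the largest fall of all members. It was 66.9, 33.9 and 39.0 in X-ray spleen, against 169.8, 169 and 165 in untreated spleen, a difference of -1.90 ± 0.22 (limma adjusted p = 0.000449). Ccne2, which encodes cyclin E2, and E2f1, an activating E2F factor, fell by 1.10 ± 0.27 and 1.04 ± 0.21 on the log2 scale. E2f2, a second activator, was 1266, 682 and 908 in X-ray spleen, against 792, 660.0 and 691 in untreated spleen, a difference of 0.37 ± 0.22 that did not pass (limma adjusted p = 0.206).

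**Figure D1:**
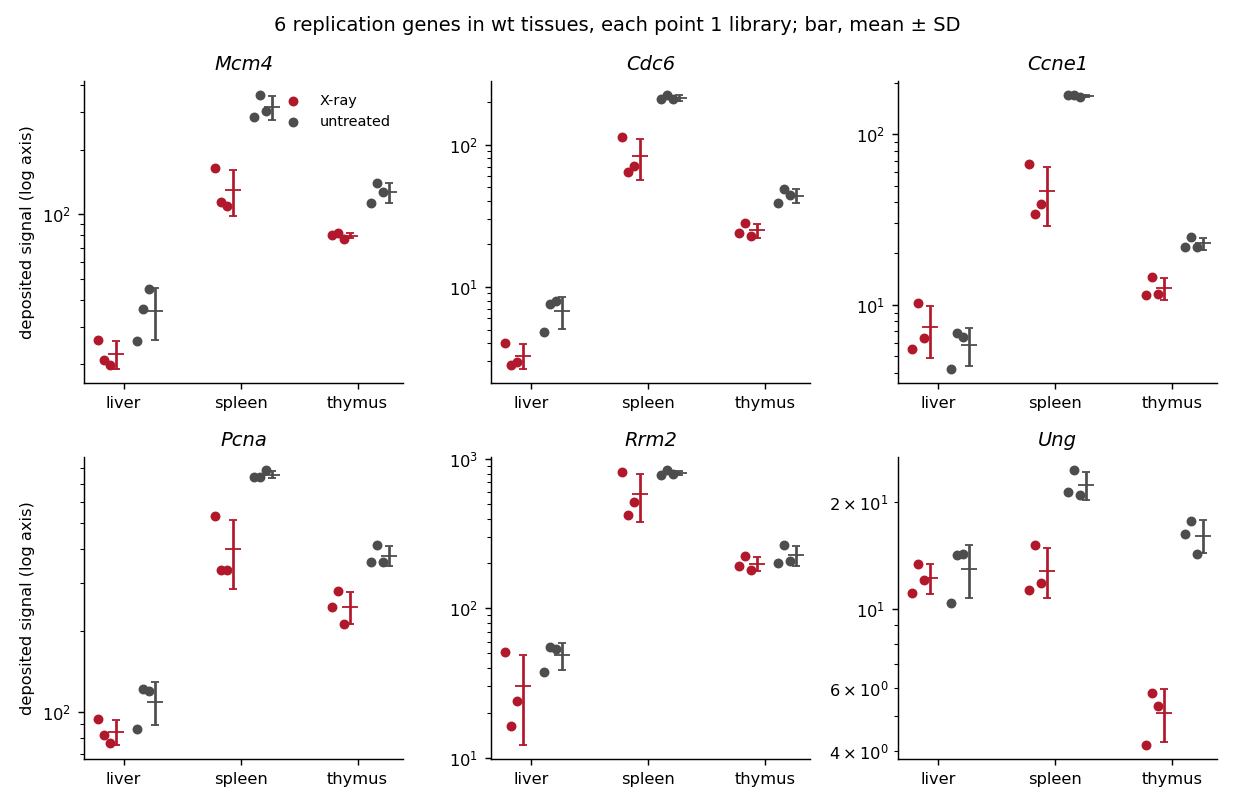
Deposited signal (log axis) of Mcm4, Cdc6, Ccne1, Pcna, Rrm2 and Ung in each wt library of liver, spleen and thymus, X-ray left of untreated; points are libraries and bars are mean ± SD of 3. In spleen the X-ray libraries lie below the untreated ones for every panel gene except Rrm2, where replicate 1 at 816 lies within the untreated range of 789 to 840.1.

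Genes of mitosis, used as a second readout of dividing cells, were counted beside the members. Of 25 mitotic genes, 2 were lower (Ttk and Bub1) and 1 was higher (Ube2c, which was 1014, 501 and 678 in X-ray spleen, against 357, 295 and 381 in untreated spleen), with a median of -0.28; these 3 are named because they were all that passed. Both lower calls were lost under edgeR and with the spread taken from all 18 libraries. Mki67, the proliferation marker, was 3726, 2103 and 2908 in X-ray spleen, against 2465, 2422 and 2530.2 in untreated spleen, and the groups overlapped. Top2a was 703, 424 and 546 in X-ray spleen, against 672, 762 and 709 in untreated spleen. Ccnb1, the mitotic cyclin, was 277, 135 and 185 in X-ray spleen, against 269.9, 273 and 264 in untreated spleen. The count turned on replicate 1: without it, 19 of 25 mitotic genes were lower and 1 higher, with a median of -0.53, against 46 of 48 members lower and 1 higher, with a median of -1.20, and 28.7% of all genes lower. Taken by library, the median offset from the untreated mean in X-ray replicates 1, 2 and 3 was -0.62, -1.17 and -1.20 over the members and 0.26, -0.75 and -0.29 over the mitotic genes.

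Among 51 other replication genes not in the set, 39 were lower and 1 was higher in X-ray spleen, with a median of -0.72. Exo1, an exonuclease of repair, Dut, which removes dUTP, and Orc2, an origin recognition subunit, had the smallest p of those lower, with differences of -1.77 ± 0.15, -1.81 ± 0.16 and -1.07 ± 0.12. The 1 higher was Dctpp1, a dCTP pyrophosphatase, at 0.37 ± 0.12; none was higher with replicate number as a block or without X-ray replicate 1 (limma), while edgeR and DESeq2 called 1 each. Of 13 pocket protein, E2F partner and MuvB genes, 4 were lower and 2 were higher. Other cell markers moved in spleen as well, and their part in the members' fall was not tested. All 7 macrophage markers tested were higher, with a sum of 761 to 1185 in X-ray spleen and 448 to 605 in untreated spleen, as were 5 of 9 granulocyte and 5 of 6 megakaryocyte markers. Of 10 erythroid markers tested none passed (limma; 1 had an unadjusted p under 0.05, and edgeR and DESeq2 called 2 each), but their sum was 80369 to 123805 in X-ray spleen and 50262 to 74929 in untreated spleen. Of 8 B cell markers 3 were higher and 1 was lower. No marker of these lists was at 0 in every spleen library.

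In irradiated wt thymus the chromatin genes and most licensing genes fell, and no polymerase or primase gene passed in the main test. Of 48 members, 26 were lower and none was higher, against 11.6% of all genes lower and 9.77% higher (limma, 13810 genes tested), and edgeR and DESeq2 likewise called none higher. All 48 estimates were negative, with a median of -0.43 over the members and 0.01 over all genes. The groups did not overlap for 33 members, against 22% of all genes lower without overlap. When the spread was taken from all 18 paired-end libraries, 14 of the 26 remained, against 6.27% of all genes lower. Orc1, Mcm2, Mcm3, Mcm5, Cdc45, Gins1, Gins2, Rfc4, Lig1, Uhrf1, Chaf1a and Chaf1b lost their call. Leaving out X-ray replicate 3, which had an Alb signal of 951, left 21, against 6.52% of all genes lower. With replicate number as a block 37 were lower, against 16.3% of all genes. The 11 gained were Cdt1, Mcm7, Pola1, Prim2, Rfc1, Fen1, Rpa1, Rpa2, Rrm1, Tyms and E2f1.

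The chromatin and uracil removal genes fell furthest, 7 of 7, with a median of -0.78. Ung had the largest fall of all members in thymus: it was 4.14, 5.82 and 5.34 in X-ray thymus, against 16.2, 17.7 and 14.3 in untreated thymus, a difference of -1.57 ± 0.14 (limma adjusted p = 0.000116). Hells was 21.2, 19.0 and 18.3 in X-ray thymus, against 44.0, 52.7 and 51.0 in untreated thymus, a difference of -1.31 ± 0.10. Cdca7 was 96.3, 129.7 and 88.4 in X-ray thymus, against 209.7, 247 and 222 in untreated thymus, a difference of -1.12 ± 0.13. Uhrf1, which recognises hemimethylated DNA behind the fork, and Slbp, which binds histone mRNA, fell by 0.78 ± 0.12 and 0.74 ± 0.09 on the log2 scale. None of these groups overlapped.

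Shmt1 fell in thymus, to 10.9, 11.2 and 11.1 in X-ray libraries, against 24.02, 26.9 and 23.2 in untreated ones, a difference of -1.12 ± 0.09 (limma adjusted p = 6.6e-05). It was the 1 nucleotide synthesis gene of 5 that passed in the main limma test. DESeq2 called Rrm1 as well, and the fit with replicate number as a block called Rrm1 and Tyms. Rrm2 was 192, 224 and 182 in X-ray thymus, against 203, 267 and 209 in untreated thymus, and did not pass (limma adjusted p = 0.314). Of the regulators Ccne2 and Ccne1 fell, by 1.10 ± 0.15 and 0.85 ± 0.12 on the log2 scale. E2f1 and E2f2 did not pass in the main limma test, at -0.35 ± 0.12 and -0.12 ± 0.09. E2f1 was called lower by edgeR, by DESeq2 and with replicate number as a block. Ccne1 was 11.3, 14.5 and 11.6 in X-ray thymus, against 21.9, 25.0 and 21.7 in untreated thymus.

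Licensing genes fell in thymus in 8 of 10 cases, with a median of -0.54. Cdc6 was 23.8, 28.1 and 22.9 in X-ray thymus, against 38.7, 48.5 and 44.4 in untreated thymus, a difference of -0.80 ± 0.11. Mcm4 was 80.0, 81.9 and 77.1 in X-ray thymus, against 113, 140.0 and 127 in untreated thymus, a difference of -0.66 ± 0.09. Cdt1 and Mcm7 did not pass in the main test, but passed with replicate number as a block. Helicase activation genes fell in 4 of 6 cases and clamp, loader and lagging strand genes in 4 of 10, among them Pcna, which was 245, 279 and 212 in X-ray thymus, against 359.6, 416 and 359 in untreated thymus, a difference of -0.63 ± 0.11. Of the 6 polymerase and primase genes none passed in the main limma test, edgeR or DESeq2, and 2 had an unadjusted p under 0.05. Pola1 and Prim2 passed with replicate number as a block. Estimates ran from -0.26 ± 0.10 for Pola1 to -0.01 ± 0.14 for Pold1. Pold1, the catalytic subunit of the lagging-strand polymerase, was 27.1, 39.8 and 36.3 in X-ray thymus, against 34.1, 38.7 and 30.2 in untreated thymus.

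**Figure D2:**
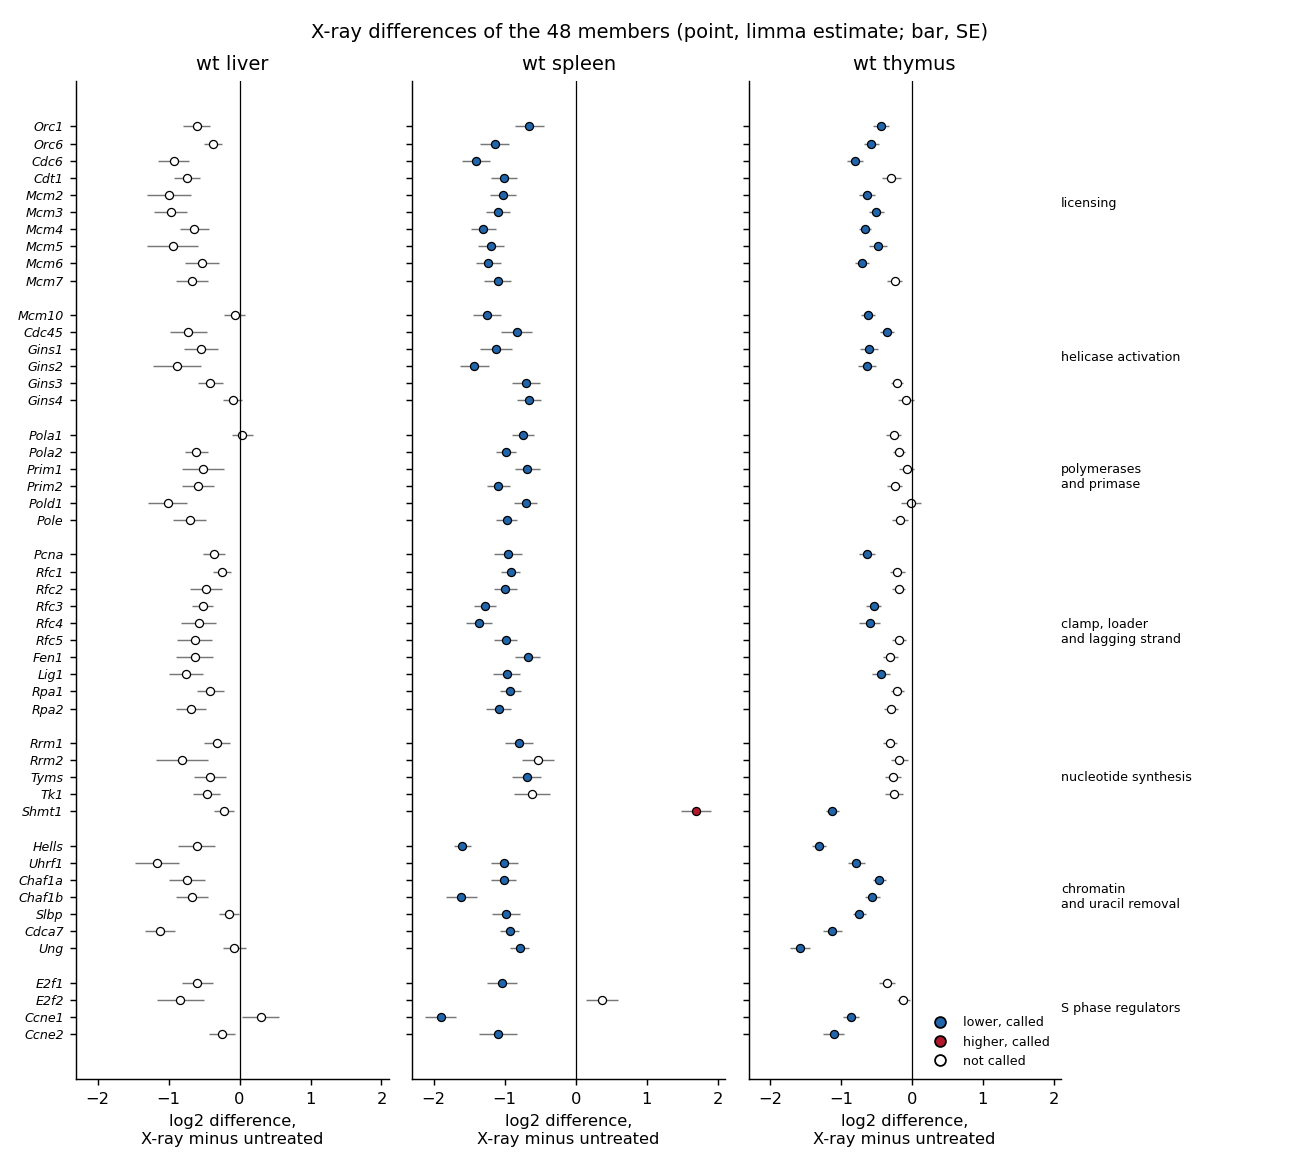
X-ray minus untreated difference (log2) of each of the 48 members in wt liver, spleen and thymus, grouped by role; points are limma estimates, bars their SE, and fill marks members that passed. In spleen 44 points are lower and Shmt1 alone is higher, in thymus 26 are lower, and in liver no point is filled although 46 of 48 are negative.

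Mitotic genes in thymus moved alongside the members: 17 of 25 were lower and none higher, with a median of -0.41, and all 17 lost their call when the spread came from all 18 libraries. Ccnb1 was 65.8, 64.4 and 58.8 in X-ray thymus, against 109, 133 and 100.3 in untreated thymus, a difference of -0.84 ± 0.11. Mki67 was 419, 405 and 429 in X-ray thymus, against 471, 557 and 498 in untreated thymus, and its difference of -0.28 ± 0.09 did not pass, nor did that of Top2a, -0.27 ± 0.11. Of the 51 other replication genes 29 were lower and 1 was higher, with a median of -0.38. Cdc25a, the phosphatase that activates cyclin E kinase, Exo1 and Nasp, a histone chaperone, had the smallest p of those lower, at -0.63 ± 0.07, -0.68 ± 0.09 and -0.65 ± 0.09. The 1 higher was Dck, deoxycytidine kinase of the salvage pathway, at 0.37 ± 0.10. With the spread taken from all 18 libraries 15 were lower and the call of Dck was lost, and without X-ray replicate 3 there were 19 lower and 1 higher. Of the pocket protein, E2F partner and MuvB genes 4 were lower and 2 were higher.

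Cell markers in thymus changed too, and their part in the members' fall was not tested. Of 9 T cell and thymocyte markers 1 was lower, and their sum was 5628 to 7095 in X-ray thymus and 5570 to 6408 in untreated thymus. Of 6 thymic epithelium markers 3 were higher, with a sum of 602 to 696 in X-ray thymus and 375 to 392 in untreated thymus; Krt8 averaged 338 and 190.0 there. Of 6 macrophage markers tested 4 were higher, and 5 of 6 granulocyte markers tested. Hepatocyte markers summed to 176 to 1489 in X-ray thymus and to 59.4 to 210.4 in untreated thymus, and 1 of 8 passed.

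Spleen and thymus shared most of the calls of thymus, but 44 of all 48 members were lower in spleen. A high share of the thymus list was therefore set by the spleen count alone. Of the 26 members lower in thymus, 25 were also lower in spleen, which is 96.2% of the thymus list and 56.8% of the spleen list of 44; the other was Shmt1. Across the 48 members the log2 differences in the 2 tissues had a Pearson r of 0.10 and a Spearman rho of 0.51, and r was 0.48 over the 47 members other than Shmt1. Members share libraries within a tissue and are not independent. The estimate was more negative in spleen for 43 members and more negative in thymus for 5.

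**Figure D3:**
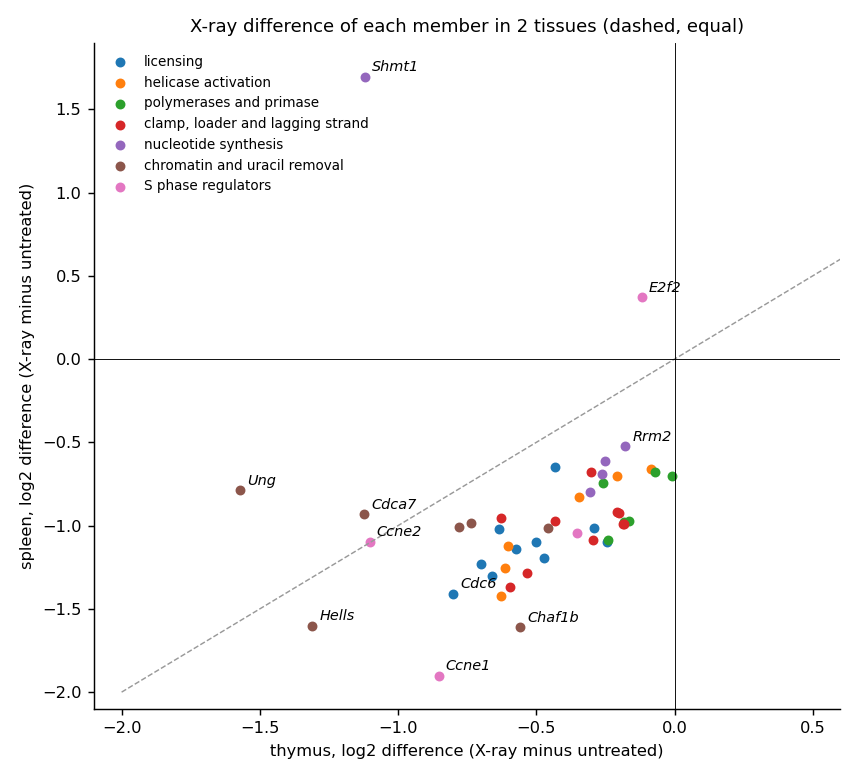
X-ray minus untreated difference (log2) of each member in thymus (x axis) and spleen (y axis), coloured by role; the dashed line marks equal differences. Shmt1 lies apart at -1.12 in thymus and 1.69 in spleen, Ung lies above the line at -1.57 and -0.79, and 43 members lie below the line.

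Whether the X-ray difference itself differed between tissues was tested with an interaction F test over the 18 paired-end libraries. It was called for 12 of 48 members, against 30.5% of all genes (limma, 15654 genes tested), so the share among members, 25%, was no higher than the background. The 6 with the smallest p were Shmt1, Ung, Ccne1, Mcm10, Rfc1 and Rfc3. For Shmt1 the spleen difference exceeded that of thymus by 2.82 ± 0.24 and that of liver by 1.92 ± 0.24. For Ung the thymus difference was below that of liver by 1.497 ± 0.22 on the log2 scale, and the spleen difference was 0.78 ± 0.22 above that of thymus. For Ccne1 the spleen difference was 2.20 ± 0.33 below that of liver, and the spleen minus thymus contrast of -1.05 ± 0.33 did not pass (limma adjusted p = 0.0559). The differences of Mcm10 and of the clamp loader genes Rfc1 and Rfc3 were lower in spleen than in liver, by 1.19 ± 0.24, 0.67 ± 0.17 and 0.77 ± 0.20 on the log2 scale. Counted by pair, the spleen difference was above that of liver in 2 members (background 13.6%) and below it in 10 (background 12.8%), and the thymus difference was above that of liver in 1 member, Pold1 (background 8.37%), and below it in 3, Ung, Ccne1 and Shmt1 (background 7.14%). Between spleen and thymus, 4 members were lower in spleen (Pola2, Rfc1, Rfc3 and Chaf1b; background 5.39%) and 2 were higher (Shmt1 and Ung; background 4.15%). The count called by the F test was 32 without X-ray spleen replicate 1, 21 without X-ray liver replicate 1 and 7 without X-ray spleen replicate 3. The share of all genes called in those fits is not given here, so these counts cannot be set against a background.

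In irradiated wt liver no member passed, against 0.242% of all genes (limma, 13250 genes tested), but 46 of 48 estimates were negative, with a median of -0.60 over the members and -0.05 over all genes. An unadjusted p under 0.05 was found for 31 members, against 21.9% of all genes; edgeR called 0, against 0.242% of all genes, and DESeq2 called 8, all lower, against 1.37% of all genes lower. The groups did not overlap for 14 members, all lower, which is 29.2% of them, against 13.9% of all genes. The count depended on the fit and on replicate 1. Its median offset over the members from the untreated mean was -0.17, against -0.93 and -0.60 in X-ray replicates 2 and 3, while untreated replicates ran from -0.30 to 0.17. Without it 33 of 48 members were lower and 14.5% of all genes; with the spread taken from all 18 libraries 21 were lower and 7.23% of all genes.

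The liver values show this layout gene by gene. Uhrf1, with the lowest estimate, was 16.2, 6.48 and 11.5 in X-ray liver, against 18.6, 28.5 and 27.9 in untreated liver. Cdca7 was 3.59, 2.45 and 2.81 in X-ray liver, against 5.70, 6.44 and 9.02 in untreated liver, a difference of -1.12 ± 0.21 with the smallest adjusted p of the members (limma, 0.106). Cdc6 was 4.03, 2.83 and 2.97 in X-ray liver, against 4.79, 7.59 and 7.96 in untreated liver. Cdc6 and Cdca7 were low in all 3 X-ray libraries, without overlap. Of the MCM helicase genes, Mcm3 was lower without overlap and the others overlapped, with Mcm4 at 26.1, 20.9 and 19.9 in X-ray liver, against 25.7, 36.2 and 44.9 in untreated liver. Rrm2 was 51.0, 16.3 and 23.9 in X-ray liver, against 37.5, 55.4 and 53.2 in untreated liver, so replicate 1 lay inside the untreated range and the other two below it. Pcna was 93.8, 81.9 and 76.5 in X-ray liver, against 86.4, 121 and 119 in untreated liver. Ung was 11.1, 13.4 and 12.1 in X-ray liver, against 10.4, 14.2 and 14.3 in untreated liver, a difference of -0.07 ± 0.16.

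Ccne1 was 5.52, 10.2 and 6.40 in X-ray liver, against 4.17, 6.83 and 6.48 in untreated liver; it and Pola1 had the 2 positive estimates, 0.30 ± 0.26 and 0.04 ± 0.15, and neither passed. Shmt1, at 371, 284 and 266 in X-ray liver, against 367, 362 and 333 in untreated liver, did not pass either. Mitotic genes had the same split by library: all 25 estimates were negative, with a median of -0.86, none passed (limma and edgeR; 19 had an unadjusted p under 0.05 and DESeq2 called 1), and without replicate 1 all 25 were lower. Mki67 was 91.9, 40.9 and 36.8 in X-ray liver, against 104, 126 and 81.5 in untreated liver, and Ccnb1 was 31.0, 9.01 and 8.48 in X-ray liver, against 21.8, 27.1 and 18.9 in untreated liver. Of 50 other replication genes tested none passed (limma and edgeR; 23 had an unadjusted p under 0.05, and DESeq2 called 2 higher and 4 lower), and without replicate 1 there were 19 lower and 2 higher. Erythroid markers, of which none of 10 tested passed (limma, edgeR and DESeq2; 1 had an unadjusted p under 0.05), summed to 2252 to 5093 in X-ray liver and 4083 to 6661 in untreated liver. Their part in these values was not tested.

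**Figure D4:**
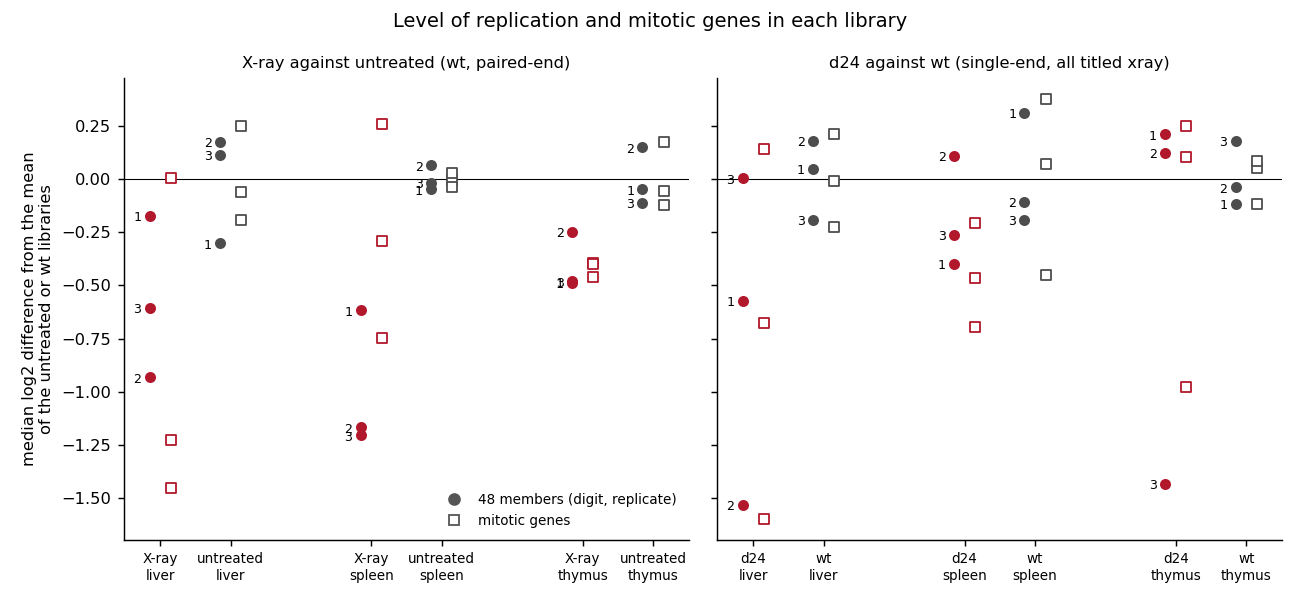
Median log2 difference of each library from the mean of the untreated libraries (left) or wt libraries (right) of its tissue, over the 48 members (filled circles, replicate number beside) and 25 mitotic genes (open squares). X-ray spleen lies at -0.62 to -1.20 over the members, X-ray liver replicate 1 at -0.17 lies in the untreated range, and d24 liver replicate 2 and d24 thymus replicate 3 lie lowest at -1.53 and -1.43.

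The d24 libraries were set against wt libraries of the same tissue in the single-end table, where every library is titled xray. In each tissue 1 of the 2 groups has characteristics that contradict that title. An irradiation panel of 6 genes, Cdkn1a among them, had positive estimates for all 6 in d24 liver and d24 spleen. In d24 thymus all 5 tested were positive. Of these genes 0 passed in liver, 5 in spleen and 0 in thymus (limma). Genotype and irradiation cannot be told apart in any of these tissues. No member passed in any tissue. Limma called 0 of 48 in liver (0.526% of all genes), 0 of 48 in spleen (2.28%) and 0 of 48 in thymus (0.00724%). By edgeR it was 0 of 48 in each tissue, against 0.0803%, 1.07% and 0.0145% of all genes in liver, spleen and thymus. DESeq2 called 0 of 48 in each tissue as well. Over all genes DESeq2 called 341 higher and 190 lower of 13695 in liver, and 308 higher and 289 lower of 13554 in spleen. For thymus its calls were 229 higher and 37 lower of 13818 genes. An unadjusted p under 0.05 (limma) was found for 9 members in liver (13.4% of all genes), 2 in spleen (13.3%) and 0 in thymus (9.83%). The F test for a difference between tissues called 0 of 48, against 0.988% of all genes, and edgeR and DESeq2 called 0. The 6 smallest p in that test were those of E2f2, Rfc2, Prim2, Rrm2, Chaf1b and Mcm4, with the lowest unadjusted p at 0.0261 for E2f2 and at 0.0357 for Rfc2 (limma interaction F). The median difference of the mitotic genes was -0.73 in liver, -0.44 in spleen and -0.26 in thymus, and that of the other replication genes was -0.36, -0.28 and -0.26.

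In d24 liver, 45 of 48 estimates were negative, with a median of -0.72 over the members and -0.08 over all genes. The spread within d24 liver was wide: the median offset over the members from the wt mean was -0.57, -1.53 and 0.00 in the 3 d24 libraries, and -0.19 to 0.18 in the wt ones. Without d24 replicate 2 the median was -0.27, and without d24 replicate 3 it was -1.02. The groups did not overlap for 10 members lower (11.5% of all genes) and 1 higher (7.56%). Rfc2, a clamp loader subunit, was 30.5, 9.69 and 28.9 in d24 liver, against 40.6, 64.8 and 59.2 in wt liver, a difference of -1.37 ± 0.43 (limma adjusted p = 0.209). It was the 1 member called, lower, when the spread came from all 18 single-end libraries, against 1.31% of all genes lower. Rrm2 was the 1 member higher without overlap, at 83.9, 68.8 and 84.5 in d24 liver, against 62.0, 63.1 and 33.8 in wt liver. Mcm4 was 26.9, 14.5 and 46.3 in d24 liver, against 56.3, 57.9 and 39.6 in wt liver, Cdc6 was 2.80, 1.44 and 9.69 in d24 liver, against 10.8, 8.61 and 3.92 in wt liver, and Pcna was 16.4, 19.9 and 48.3 in d24 liver, against 42.1, 57.0 and 44.3 in wt liver. In all 3 genes replicate 3 lay in the wt range and the other two below it. Ccne1, at 0.18 ± 0.40, and Ung, at -0.14 ± 0.30, had smaller estimates. Markers of blood cells were low in the same libraries. Of 8 granulocyte markers tested 6 were lower under limma, 0 under edgeR and 6 under DESeq2. The granulocyte sum was 16.7 to 74.0 in d24 liver and 400.3 to 897 in wt liver. Of 9 erythroid markers 7 had negative estimates and 1, Alas2, was lower (limma), with a sum of 217 to 592 in d24 liver and 572 to 2543 in wt liver. All 8 T cell markers tested had negative estimates, of which 1, Rag1, was lower (limma), with a sum of 16.6 to 21.9 in d24 liver and 36.1 to 80.0 in wt liver. The part of these cells in the members' values was not tested.

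In d24 spleen, 33 of 48 estimates were negative, with a median of -0.19 over the members and -0.05 over all genes. Mcm4 was 233, 247 and 227 in d24 spleen, against 368, 238 and 141 in wt spleen, and the wt libraries alone spanned the d24 ones. Cdc6 was 89.1, 115 and 107 in d24 spleen, against 193, 128 and 83.2 in wt spleen. Ccne1 was 133, 168 and 169 in d24 spleen, against 169, 113 and 137 in wt spleen, which is 0.18 ± 0.26 for the gene with the largest X-ray fall in paired-end spleen. The panel's other estimates were -0.27 ± 0.27 for Pcna, 0.08 ± 0.32 for Rrm2 and 0.22 ± 0.34 for Ung. Tk1, Pold1 and Prim1 were lower without overlap, 3 of 48 against 10.6% of all genes, and Tk1 was 96.5, 123 and 102 in d24 spleen, against 174, 147 and 208 in wt spleen, a difference of -0.71 ± 0.25 (limma adjusted p = 0.223). Cdkn1a separated d24 from wt spleen as X-ray from untreated spleen in the other table, so genotype and irradiation cannot be told apart here; the members' median was -0.19 in this comparison and -0.99 in that one, in tables that were normalised separately. Markers of other cells moved in d24 spleen. Of 9 granulocyte markers 9 were lower under limma, 5 under edgeR and 7 under DESeq2. Their sum was 106 to 902 in d24 spleen and 2791 to 8622 in wt spleen. Of 6 megakaryocyte markers 6 were lower under each of these methods. The megakaryocyte sum was 30.7 to 42.1 in d24 spleen and 397 to 939 in wt spleen. All 8 B cell markers had negative estimates, with a median of -1.65, and 1, Cd79b, was lower (limma), with a sum of 65.2 to 358 in d24 spleen and 497 to 679 in wt spleen. Of 8 T cell markers 7 had negative estimates and none passed (limma, edgeR and DESeq2; 2 had an unadjusted p under 0.05), with a sum of 40.3 to 114 in d24 spleen and 113 to 142 in wt spleen. The part of these cells was not tested.

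In d24 thymus all 48 estimates were negative, with a median of -0.39 over the members and -0.02 over all genes, and 1 library set the sign. The median offset over the members was 0.21 and 0.12 in d24 replicates 1 and 2 and -1.43 in replicate 3, against -0.12 to 0.18 in wt thymus. The groups did not overlap for 1 member, E2f2, which was lower (7.55% of all genes). Without replicate 3 the median was 0.19 and no member passed (limma). Mcm4 was 195, 177 and 67.0 in d24 thymus, against 151, 147 and 171 in wt thymus. Rrm2 was 308, 313 and 75.7 in d24 thymus, against 245, 286 and 323 in wt thymus. Ung was 25.2, 17.1 and 2.70 in d24 thymus, against 17.3, 9.69 and 21.1 in wt thymus. Cdc6, Ccne1 and Pcna had estimates of -0.44 ± 0.54, -0.64 ± 0.44 and -0.58 ± 0.37. Replicate 3 also held an Alb signal of 793, against 11.8 and 47.6 in the other d24 thymus libraries and 0.185 to 4.43 in wt thymus, and had the highest Cdkn1a of the 6, at 67.8. Mitotic genes were low in it too, with a median offset of -0.98. T cell markers summed to 4507 to 7085 in d24 thymus and to 7576 to 8187 in wt thymus, and all 9 had negative estimates of which none passed (limma, edgeR and DESeq2; 2 had an unadjusted p under 0.05). The part of hepatocyte or T cell RNA in these values was not tested.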

How the data were processed

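The deposited signal is, judged from its values, CPM with a library factor: every value was a whole multiple of 1 step per column (100% at a tolerance of 0.01 step), so whole reads were recovered. The submitters' processing notes name edgeR and mm10; the aligner, the counter and any use of strand are not stated there, and reads that overlapping or antisense genes share cannot be told apart. The paired-end table has 18 columns of no library here, not used. Tables were normalised separately and never joined.

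A gene was tested in a comparison where 3 or more of its libraries reached a signal of 1. The test was limma 3.58.1 (R 4.3.3, eBayes with trend) with a pseudocount of 0.5, its p adjusted by Benjamini and Hochberg across all tested genes and called under 0.05; the code was tested on simulated data. Alternatives were pseudocounts of 0.1 and 2, other filters and scaling, edgeR 4.0.16, DESeq2 1.42.0, 1 fit of 18 libraries, a replicate block, an Xist covariate and leaving out libraries. Same-numbered wt spleen libraries deviated together (correlations 0.177 to 0.241). No label states a pairing, and 3 libraries per group are few to judge one by. In wt thymus 5 libraries correlated best with their own number, with same-number correlations from 0.055 to 0.476. Elsewhere every same-number correlation was at 0.104 or under. The main test took no numbers as pairs in any tissue, and the replicate block is the alternative that does.

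Members and lists were chosen with earlier results of these data known. Named were the panel, the 5 largest differences each way among members that passed, the 6 smallest p of each F test, the 3 smallest p each way of the other replication genes, and Mki67, Top2a and Ccnb1. Promoter stretches are shown for the panel where they lie outside exons; the other 4 were chosen after their letters were seen. Leaving out libraries that stood apart for the list counts was also chosen after seeing the data.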

Additional observations from a re-analysis of the deposited data

Results flagged for a closer look

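The X-ray difference differed between tissues, by the limma interaction F test, in 12 members, against 30.5% of all genes. The F statistics were 72.1 for Shmt1, 23.4 for Ung, 22.1 for Ccne1, 12.7 for Mcm10, 10.5 for Rfc1, 9.34 for Rfc3, 8.84 for Pola2, 7.91 for Pola1, 7.10 for Chaf1b, 6.99 for Slbp, 6.79 for Hells and 5.85 for Orc6. Shmt1 was higher in X-ray spleen and lower in X-ray thymus, the 1 member called in opposite directions. Groups of 3 libraries were too small for a test of single outlying libraries.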

How the results depend on the processing

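Of the alternatives other than leaving out a library, 82 kept the counts of members called within 1.5 times the reported ones, and 4 moved. Those 4 were X-ray liver, with 8 members under DESeq2 and 21 with 1 fit of all 18 libraries, X-ray thymus, with 14 under that fit, and d24 liver, with 1 under it; the fit of 18 libraries takes its spread from other tissues. Leaving out 1 library gave 0 to 33 members in X-ray liver (33 without X-ray replicate 1), 37 to 47 in X-ray spleen, 21 to 28 in X-ray thymus and 7 to 32 in the X-ray by tissue F test, and 0 in each d24 comparison. Shares of all genes are not given beside these ranges, so the ranges alone do not set the members apart from other genes. Of named members and the 2 other lists, 1068 of 1092 alternatives kept direction and call; 14 changed sign, all in estimates that did not pass. In d24 spleen Mcm4 turned to -0.057 under edgeR, -0.061 under DESeq2 and -0.055 with the Xist covariate. Over the libraries left out, estimates ran in d24 liver from -0.12 to 0.50 for Ccne1, in d24 spleen from -0.33 to 0.36 for Mcm4, -0.60 to 0.0022 for Cdc6 and -0.18 to 0.35 for Rrm2, and in d24 thymus from -0.52 to 0.25 for Mcm4, -0.92 to 0.33 for Cdc6, -0.89 to 0.13 for Rrm2 and -1.07 to 0.43 for Ung, the highest without d24 replicate 3. The cause was not tested. With replicate number as a block the F test called 14 members, and X-ray liver and the d24 comparisons 0. The share of all genes called by that F test is not given here, so its 14 members cannot be set against a background. X-ray thymus had 37 lower under the block, with all 26 kept, against 16.3% of all genes lower. X-ray spleen had 46, of which 45 were lower, against 21.4% of all genes lower. Depth limits the lowest members: Orc1 in liver averaged 0.667 in X-ray and 1.29 in untreated libraries.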
